A study of Mus musculus with 27 samples.

Results

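The 6 clock genes described here were measured in mouse colon: Nr1d1, Nr1d2, Ciart, Bhlhe40, Bhlhe41 and Rora. They were chosen by name, as repressors of the circadian clock together with Rora, the activator that acts at the same DNA elements as Nr1d1 and Nr1d2. Earlier results of these data were known when the 6 genes were chosen. All 16 probe sets annotated to these 6 genes alone were used, of 45037 probe sets that are not controls, and the 6 genes are 6 of 18193 genes measured. Full-thickness colon was measured on 27 arrays in 9 groups of 3. Il10 knockouts (Il10-/-) and wild types were both kept in conventional housing, and further Il10 knockouts were kept under specific pathogen free (SPF) conditions, each sampled at 7, 9 and 12 weeks of age. Il10 encodes a cytokine that holds back inflammation, and without it mice are prone to colitis driven by gut microbes. The code CC in the labels is read as conventional knockout, because the remaining codes stand for the SPF and wild-type groups. Arrays were picked by the authors on colon length and colonic damage. SPF wild types are not analysed here, so genotype and housing both differ where SPF knockouts are set against wild types. Whether animals were pooled is not stated, and p-values measure only the spread between these samples, which may be technical. The labels give no strain, sex or time of day of tissue collection.

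The mammalian clock is a feedback loop in which the CLOCK-BMAL1 dimer (BMAL1 is encoded by Arntl) drives its own repressors through E-box elements. The REV-ERB nuclear receptors, encoded by Nr1d1 and Nr1d2, repress Arntl through ROR elements, where RORs such as the product of Rora activate. Ciart (also called CHRONO) and the basic helix-loop-helix factors Bhlhe40 and Bhlhe41 (DEC1 and DEC2) repress CLOCK-BMAL1 activity at E-boxes. Transcripts of Nr1d1, Nr1d2 and Ciart are known to cycle with time of day in peripheral tissues, the gut included.

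Promoters of 5 of the 6 genes were matched in the RefSeq table (build GRCm38.p6); Bhlhe40 was not matched. The window searched ran from 250 bases before to 50 bases after each start, and both strands were read. The E-box CACGTG was found in 7.15% of 32851 promoters of that length. Ciart held 3 copies, with first bases 116, 58 and 44 bases before the start, a number reached or passed by 0.0883% of promoters. Bhlhe41 held 1 copy, 153 bases before the start. The ROR core AGGTCA, found in 16.3% of promoters, was present once, in Nr1d2, 77 bases before the start. Nr1d1 held none of these, but 1 match to the E-box variant CACGTT (4.68% of promoters), on the opposite strand 28 bases before the start. The D-box TTANGTAA (2.32% of promoters) was in none of the 5 windows, and Rora had no match to any of the 4 motifs. The 250 bases before the start are printed for the 3 genes with the largest differences between groups, 5′ to 3′, with matches to CACGTG or AGGTCA in capitals: Nr1d1 at chr11:98775378-98775627, minus strand, Nr1d2 at chr14:18239107-18239356, minus strand, and Ciart at chr3:95882229-95882478, minus strand. A match describes letters, not binding.
Nr1d1: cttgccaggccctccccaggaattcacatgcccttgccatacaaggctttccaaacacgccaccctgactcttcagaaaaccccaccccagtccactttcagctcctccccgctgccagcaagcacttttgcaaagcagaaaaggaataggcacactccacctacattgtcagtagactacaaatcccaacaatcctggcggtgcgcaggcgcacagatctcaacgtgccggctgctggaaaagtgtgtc
Nr1d2: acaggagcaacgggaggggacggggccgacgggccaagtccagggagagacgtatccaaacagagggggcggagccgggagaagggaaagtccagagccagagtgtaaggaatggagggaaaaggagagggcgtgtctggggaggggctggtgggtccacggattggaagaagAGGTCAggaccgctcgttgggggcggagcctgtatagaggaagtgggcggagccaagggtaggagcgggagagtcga
Ciart: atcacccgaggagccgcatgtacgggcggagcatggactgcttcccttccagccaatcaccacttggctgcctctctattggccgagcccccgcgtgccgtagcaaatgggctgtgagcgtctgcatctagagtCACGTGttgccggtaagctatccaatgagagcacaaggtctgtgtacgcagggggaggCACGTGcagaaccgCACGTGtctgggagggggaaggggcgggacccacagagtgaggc

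The median log2 value of an array was 4.92 to 4.99, and correlations of arrays across genes were 0.94 to 0.995. The Il10 signal was 3.51 to 3.83 in the 9 wild-type arrays and 4.66 to 7.09, higher, in the 18 knockout arrays. Neither the allele nor the part of the transcript that the probes read is given, so this does not check the genotype labels. Colonocyte markers gave list means of 11.19 to 11.79 in every group except the SPF knockouts at 12 weeks, where they ran from 9.98 to 11.62. Wild-type 12-week replicate 2 had the highest difference between 3' and 5' actin signal, 0.946 against at most 0.715 in the other arrays. Levels are log2 expression values as normalised by the authors, and levels of different genes are not compared, since probe sets differ in sensitivity. A difference is given on the log2 scale as the mean of one group minus that of the other, ± SE with n = 3 arrays in each, and comes from a limma model fitted to the 27 arrays together. A gene was called where its Benjamini-Hochberg adjusted p over the 18193 genes was under 0.05. In whole tissue, fewer cells of a type and less RNA per cell cannot be told apart.

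Nr1d1 and Nr1d2 were high and nearly equal in wild types and SPF knockouts at 7 weeks and low in conventional knockouts of the same age. The drop was 8.89-fold for Nr1d1 and 7.06-fold for Nr1d2 against wild types. In SPF knockouts both genes had fallen to a similar level by 9 weeks, by 6.25-fold and 6.39-fold from 7 weeks. Wild types were also lower at 9 than at 7 weeks, though not called. Their means were 7.43 against 8.61 for Nr1d1 and 9.75 against 10.90 for Nr1d2. For the change of the difference between SPF knockouts and wild types over these ages, limma called 0 of the 6 and 0% of genes (3 and 1348 unadjusted). Ciart was called between kinds of mice at 7 weeks only, 4.12-fold lower in conventional knockouts than in wild types. Bhlhe40 differed by at most 1.53-fold where it was called between 2 groups, Bhlhe41 passed no test, and Rora was called once among comparisons of 2 groups, lower in SPF knockouts than in wild types at 12 weeks. Among all genes, the range over the 9 group means was larger for 91 genes than for Nr1d1 (3.15), for 125 than for Nr1d2 (2.82) and for 280 than for Ciart (2.22). That range was 0.69 for Bhlhe40, 0.59 for Rora and 0.26 for Bhlhe41, against a median of 0.419 over all genes.

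Nr1d1, the REV-ERB alpha gene, was read by a single probe set, 1426464_at (chromosome 11). At 7 weeks its replicates 1 to 3 were at 8.73, 8.53 and 8.56 in wild types, at 8.48, 8.54 and 8.55 in SPF knockouts, and at 5.49, 5.84 and 5.05 in conventional knockouts. Every conventional knockout array lay far under every other 7-week array, while wild types and SPF knockouts overlapped. Of all genes, 18.6% did not overlap between conventional knockouts and wild types at 7 weeks and 16.1% between conventional and SPF knockouts. At 9 weeks the values were 7.66, 7.38 and 7.26 in wild types, 6.07, 6.29 and 5.27 in SPF knockouts, and 5.83, 6.37 and 7.05 in conventional knockouts. All 3 wild-type arrays stood above all 6 knockout arrays, and the knockouts overlapped. Arrays without overlap were common at that age, for 42.5% of all genes between conventional knockouts and wild types and 37.4% between SPF knockouts and wild types. At 12 weeks they were 8.10, 7.27 and 6.48 in wild types, 5.82, 6.43 and 4.58 in SPF knockouts, and 5.95, 7.17 and 6.68 in conventional knockouts. Here wild types overlapped with conventional knockouts and stood just above the SPF knockouts, a comparison in which 33.5% of all genes did not overlap.

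Nr1d2, the REV-ERB beta gene, is on chromosome 14 and was read by 2 probe sets, of which 1416958_at had the higher mean. At 7 weeks replicates 1 to 3 were at 10.79, 10.92 and 10.98 in wild types, at 10.79, 10.96 and 10.89 in SPF knockouts, and at 8.11, 8.23 and 7.89 in conventional knockouts. The pattern was that of Nr1d1, with wild types and SPF knockouts overlapping and conventional knockouts far under them. The shares of all genes without overlap are those given for Nr1d1. At 9 weeks the values were 9.86, 9.75 and 9.63 in wild types, 8.45, 8.73 and 7.42 in SPF knockouts, and 8.28, 8.79 and 9.55 in conventional knockouts. At 12 weeks they were 10.79, 10.82 and 9.45 in wild types, 8.18, 8.36 and 7.99 in SPF knockouts, and 8.27, 9.69 and 9.45 in conventional knockouts. Wild types stood above SPF knockouts at both ages without overlap, and above conventional knockouts without overlap at 9 weeks only, against the same shares of all genes as for Nr1d1. The second probe set, 1416959_at, followed the first with r = 0.97 over the 27 arrays and had a range of group means of 2.92. It was called lower in the same comparisons between kinds of mice, and also higher in conventional than in SPF knockouts at 12 weeks (1.19, limma adjusted p = 0.0224 over all probe sets), where the first missed the threshold.

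**Figure D1:**
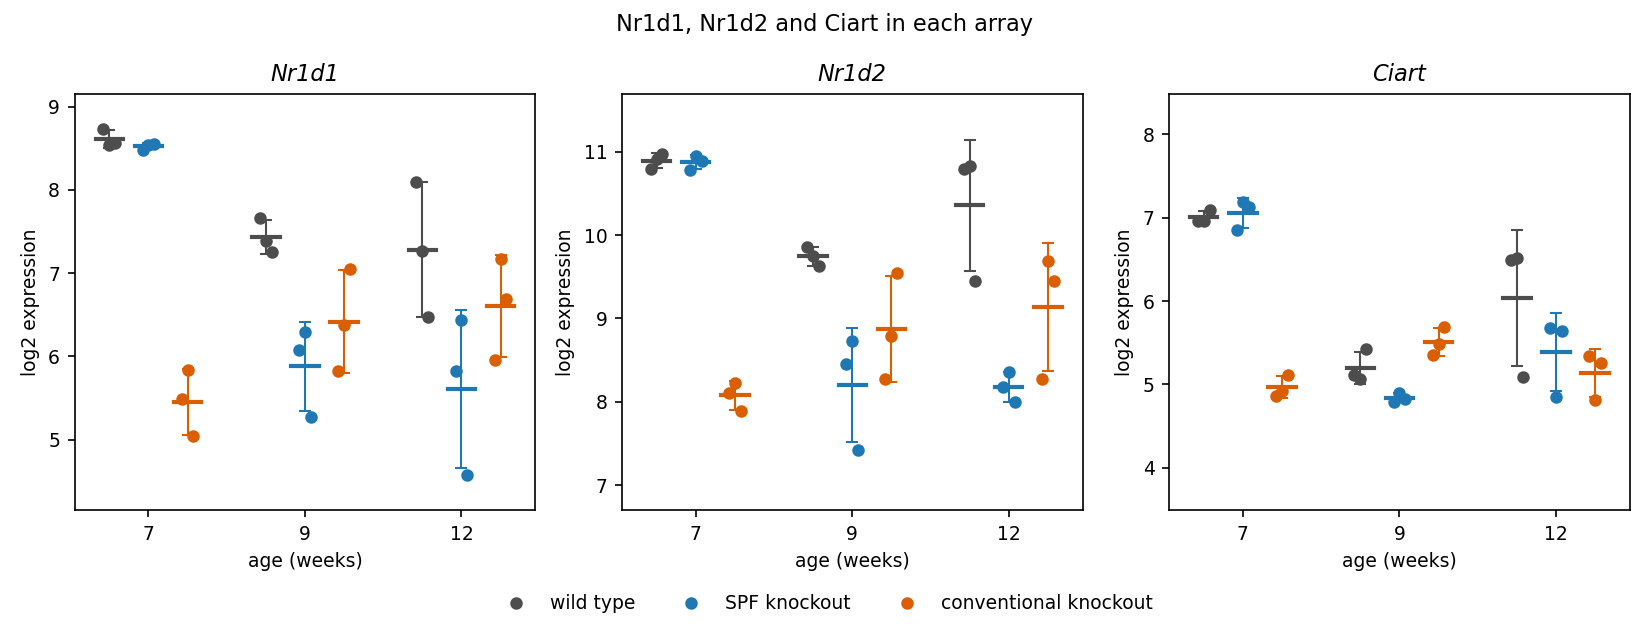
Log2 expression (vertical axes, own scale per panel, equal span) of Nr1d1, Nr1d2 and Ciart against age in weeks; points are single arrays, horizontal bars group means and whiskers 1 SD (n = 3 arrays per group). At 7 weeks the wild-type and SPF knockout arrays lie together at the top of each panel, and the conventional knockout arrays lie at 5.05 to 5.84 for Nr1d1, 7.89 to 8.23 for Nr1d2 and 4.86 to 5.11 for Ciart.

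At 7 weeks 3 of the 6 genes were called between conventional knockouts and wild types, all lower in the knockouts, where 0.506% of all genes were called (92 genes). Nr1d1 differed by -3.15 ± 0.41 (limma adjusted p = 0.000194), Nr1d2 by -2.82 ± 0.37 (adjusted p = 0.000169) and Ciart by -2.04 ± 0.26 (adjusted p = 0.000169). Against the SPF knockouts, which share the same conventional knockout arrays, the values were -3.07 ± 0.41, -2.80 ± 0.37 and -2.09 ± 0.26 (adjusted p = 0.000364, 0.000327 and 0.000327), again 3 called where 0.269% of genes were (49 genes). These 6 calls held whichever array was left out. Between SPF knockouts and wild types at 7 weeks limma called 0 of the 6, and 0 at an unadjusted p under 0.05, where 0.055% of genes were called. The differences were -0.09 for Nr1d1 (95% interval -0.95 to 0.77), -0.02 for Nr1d2 (-0.78 to 0.74) and 0.05 for Ciart (-0.50 to 0.59). Among markers of other cells at 7 weeks, 0 of 5 measured neutrophil and 0 of 6 macrophage markers were called between conventional knockouts and wild types. Their list means were 3.41 to 3.64 against 3.49 to 3.61 for neutrophils and 7.78 to 7.90 against 7.16 to 7.46 for macrophages. None of 5 B cell and 5 pancreatic acinar markers was called either, but their medians were -0.75 and -1.22. B cell list means were 4.38 to 5.38 against 5.31 to 5.91, and the acinar list mean was 7.03 in wild-type replicate 1 against 3.72 to 4.15 in the other 8 arrays of that age. Immediate early genes, which respond quickly to stimulation of cells, were higher for 4 of 7 against wild types and 2 of 7 against SPF knockouts, with list means of 8.50 to 8.90 in conventional knockouts, 7.69 to 7.89 in wild types and 7.85 to 8.01 in SPF knockouts. The part of these lists in the result was not tested, beyond the fit without wild-type replicate 1, in which the 3 genes were still called.

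At 9 weeks the REV-ERB genes were lower in SPF knockouts than in wild types, by -1.55 ± 0.41 for Nr1d1 (2.94-fold, adjusted p = 0.0197) and -1.55 ± 0.37 for Nr1d2 (2.92-fold, adjusted p = 0.0102). These were 2 of the 6 genes, where 11.8% of all genes were called. Both calls were lost without SPF knockout replicate 3, which had the lowest values. The differences were then -1.25 (adjusted p = 0.152) and -1.16 (adjusted p = 0.109). In that fit the number of all genes called went from 2155 to 283. Nr1d1 also missed the threshold without wild-type 9-week replicate 1 (0.0727) or 2 (0.0557). Of these arrays, SPF knockout replicate 3 had a neutrophil list mean of 6.10, against 3.44 and 3.87 in the other SPF knockouts and 3.45 to 3.59 in wild types. Enteric neuron and glia markers were lower in SPF knockouts for 2 of 4, with list means of 5.13 to 5.82 against 6.17 to 6.35, and smooth muscle markers for 1 of 6, at 11.32 to 12.06 against 12.23 to 12.40. Of T cell markers 1 of 5 and of colonocyte markers 1 of 6 were higher. The part of these in the result was not tested. In conventional knockouts against wild types at 9 weeks limma called 0 of the 6 genes, and 3 at an unadjusted p under 0.05, where 24% of genes were called. Nr1d1 was at -1.02 ± 0.41 (adjusted p = 0.079) and Nr1d2 at -0.87 ± 0.37 (adjusted p = 0.0869), with no overlap of arrays, which was also the case for 42.5% of the genes measured. When conventional knockout 9-week replicate 3 was left out, the highest of its group for both genes, the values were -1.33 (adjusted p = 0.0315) and -1.21 (adjusted p = 0.0234). Nr1d1 was also called without SPF knockout 12-week replicate 2 (adjusted p = 0.0498) or 3 (0.0406), which enter only through the shared spread. Neutrophil list means of the conventional knockouts were 6.69, 6.92 and 5.83 in replicates 1 to 3, all above the wild types. Macrophage list means were 8.50 to 9.10 against 7.28 to 7.71 in wild types, and smooth muscle list means 11.58 to 11.80 against 12.23 to 12.40. The part of these cell types in the result was not tested. Conventional against SPF knockouts at 9 weeks gave 0 calls among the 6 and 0% of all genes with limma, with 2 of the 6 (Ciart and Bhlhe40) and 1468 genes at an unadjusted p under 0.05.

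At 12 weeks the REV-ERB genes were again lower in SPF knockouts than in wild types, Nr1d2 by -2.18 ± 0.37 (4.53-fold, adjusted p = 0.000175) and Nr1d1 by -1.67 ± 0.41 (3.18-fold, adjusted p = 0.00346). The change of these differences from 9 weeks was -0.63 ± 0.52 and -0.11 ± 0.59, neither called. With Rora, 3 of the 6 genes were called lower, where 34.8% of all genes were called. With only the arrays of these 2 groups in the fit, Nr1d1 (adjusted p = 0.0913) and Rora (0.11) were not called. The neutrophil list means of the SPF knockouts were 7.60, 4.98 and 8.56 in replicates 1 to 3, against 3.51 to 3.53 in wild types, with 4 of 5 markers higher. Macrophage markers were higher for 6 of 6, with list means of 8.19 to 9.41 against 7.22 to 7.53. Smooth muscle markers were lower for 6 of 6, at 10.41 to 11.73 against 12.09 to 12.14. Colonocyte markers were lower for 3 of 6 and goblet cell markers for 4 of 5. The part of these cell types in the result was not tested. In conventional knockouts against wild types limma called 0 of the 6, with 3 at an unadjusted p under 0.05, where 0.451% of genes were called. Nr1d2 was at -1.22 ± 0.37 (adjusted p = 0.115), Nr1d1 at -0.68 ± 0.41 (adjusted p = 0.441) and Ciart at -0.90 ± 0.26 (adjusted p = 0.106). Without wild-type 12-week replicate 3, Nr1d2 was at -1.67 (adjusted p = 0.0396) and Ciart at -1.37 (adjusted p = 0.0015).

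That wild-type array stood apart from the other 2 of its group in Nr1d2 and Ciart, but not in Bhlhe40 (9.33 against 9.39 and 9.41), Bhlhe41 (4.08 against 3.91 and 4.14) or Rora (6.52 against 6.51 and 6.92). Nr1d1 was lowest there, at 6.48 against 8.10 and 7.27, with all 3 arrays spread out. Nr1d2 was at 9.45 against 10.79 and 10.82, and Ciart at 5.09 against 6.49 and 6.52. Arntl, the REV-ERB target, was at 8.38 against 6.97 and 6.32, and the clock output gene Dbp at 5.93 against 9.12 and 9.94. For comparison, the 9-week wild types lay at 9.63 to 9.86 for Nr1d2, 5.07 to 5.42 for Ciart, 7.91 to 8.11 for Arntl and 6.60 to 6.97 for Dbp. The 7-week conventional knockouts lay at 7.89 to 8.23, 4.86 to 5.11, 8.47 to 8.60 and 4.87 to 5.53 for the same genes. The array was within the ranges of both groups for Ciart, just under the 9-week wild types for Nr1d2, and between the 2 groups for Arntl and Dbp. Its neutrophil list mean was 3.51, against 3.52 and 3.53 in the other 2 arrays of its group. Its smooth muscle list mean was 12.10, against 12.09 and 12.14. The pooled SD within groups was 0.56 for Nr1d1, 0.49 for Nr1d2 and 0.35 for Ciart, against a median of 0.168 over all genes. The SD of Nr1d1 was 0.035 in SPF knockouts at 7 weeks and 0.946 at 12 weeks.

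**Figure D2:**
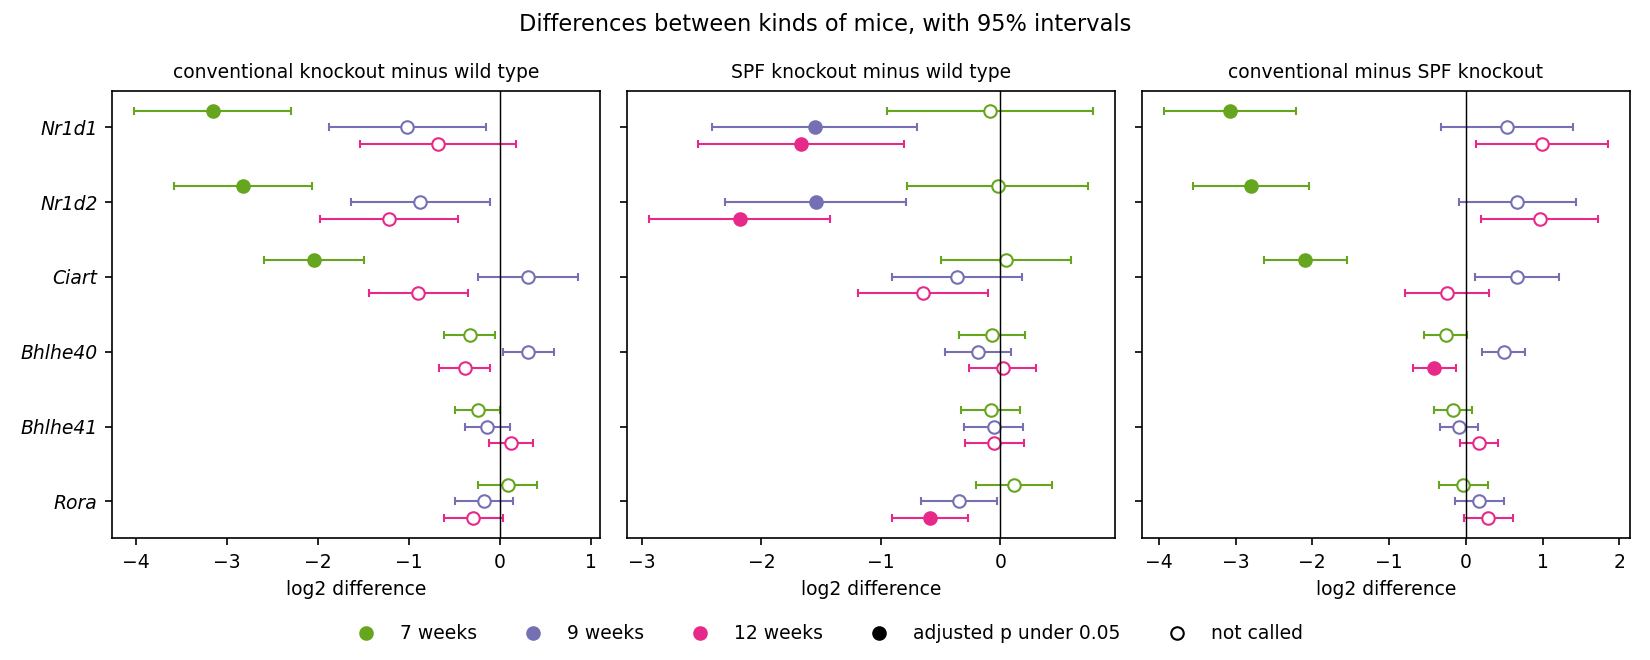
Log2 differences (horizontal axes) of the 6 genes between kinds of mice at 7, 9 and 12 weeks, with 95% intervals from limma (n = 3 arrays per group); filled points have an adjusted p under 0.05 over all genes. The 7-week points of Nr1d1, Nr1d2 and Ciart lie at -3.15, -2.82 and -2.04 for conventional knockouts against wild types and at -0.09, -0.02 and 0.05 for SPF knockouts against wild types.

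Ciart (chromosome 3, probe set 1435188_at) had the 7-week pattern of the REV-ERB genes and another order of the groups afterwards. At 7 weeks replicates 1 to 3 were at 6.97, 6.96 and 7.10 in wild types, at 6.85, 7.19 and 7.13 in SPF knockouts and at 4.86, 4.93 and 5.11 in conventional knockouts. At 9 weeks they were at 5.12, 5.07 and 5.42 in wild types, at 4.79, 4.90 and 4.83 in SPF knockouts and at 5.35, 5.48 and 5.68 in conventional knockouts. All 3 groups were low at 9 weeks. SPF knockouts lay under every array of the other groups, which overlapped. Of all genes, 37.4% did not overlap between SPF knockouts and wild types and 11.8% between conventional and SPF knockouts. At 12 weeks replicates 1 to 3 were at 6.49, 6.52 and 5.09 in wild types, at 5.67, 4.85 and 5.64 in SPF knockouts and at 5.35, 4.81 and 5.26 in conventional knockouts. All 3 groups then overlapped. Between kinds of mice Ciart was called at 7 weeks only. SPF knockouts differed from wild types by -0.36 ± 0.26 at 9 weeks (adjusted p = 0.398) and -0.65 ± 0.26 at 12 weeks (adjusted p = 0.0594). Without wild-type 12-week replicate 3 the latter was -1.12 (adjusted p = 0.000435).

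With age, Ciart fell in wild types from 7 to 9 weeks by -1.81 ± 0.26 (3.50-fold, adjusted p = 0.0114). It was the 1 gene of 18193 called there, 0.0055% of genes. The call was lost without wild-type 7-week replicate 2 (adjusted p = 0.0872) or wild-type 9-week replicate 1 (0.138) or 2 (0.16), at differences of -1.74 to -1.83. Nr1d1 and Nr1d2 were at -1.18 ± 0.41 and -1.15 ± 0.37 in the same comparison (adjusted p = 0.984 and 0.803), also without overlap of arrays, as for 12.2% of all genes. Bhlhe40 was lower too, with a mean of 9.18 at 9 against 9.67 at 7 weeks, again without overlap and not called. At an unadjusted p under 0.05, limma gave 4 of the 6 genes and 725 of all genes in wild types. In SPF knockouts from 7 to 9 weeks 4 of the 6 genes were called lower, where 0.726% of all genes were called. The differences were -2.64 ± 0.41 for Nr1d1 (adjusted p = 0.00254), -2.68 ± 0.37 for Nr1d2 (0.00054), -2.22 ± 0.26 for Ciart (6.95e-05) and -0.61 ± 0.13 for Bhlhe40 (0.0321). From 7 to 12 weeks 3 were called lower, where 27.9% of all genes were: Nr1d1 by -2.91 ± 0.41, Nr1d2 by -2.70 ± 0.37 and Ciart by -1.67 ± 0.26. Neutrophil list means of SPF knockouts were 3.51 to 3.66, 3.44 to 6.10 and 4.98 to 8.56 at 7, 9 and 12 weeks. Those of smooth muscle were 12.1 to 12.13, 11.32 to 12.06 and 10.41 to 11.73. The part of these cell types in the falls was not tested. In conventional knockouts Nr1d1, Nr1d2 and Ciart started low. From 7 to 9 weeks limma called 0 of the 6 (2 at an unadjusted p under 0.05), where 10.4% of genes were called, with Nr1d1 at 0.96 ± 0.41 (adjusted p = 0.142) and Nr1d2 at 0.80 ± 0.37 (0.167). From 7 to 12 weeks limma called 0 of the 6 and 0% of all genes (4 of the 6 and 1065 genes at an unadjusted p under 0.05), with Nr1d1 at 1.14 ± 0.41 and Nr1d2 at 1.06 ± 0.37 (adjusted p = 0.817 for both). The remaining comparisons of ages in SPF knockouts and wild types called none of the 6 with limma. These were 9 to 12 weeks in SPF knockouts (0% of genes, 3431 unadjusted, 2 of the 6 unadjusted), 9 to 12 weeks in wild types (0% of genes, 2311 unadjusted, 1 of the 6 unadjusted) and 7 to 12 weeks in wild types (0.121% of genes, 4 of the 6 unadjusted). Calls appeared when 1 array was left out. Without wild-type 12-week replicate 1, Nr1d1 (-1.74, adjusted p = 0.0322) and Ciart (-1.20, adjusted p = 0.0234) were lower at 12 than at 7 weeks in wild types. Without replicate 3 of that group Ciart was higher at 12 than at 9 weeks (1.31, adjusted p = 0.0167). Without SPF knockout 12-week replicate 2, Ciart (0.82, adjusted p = 0.0348) and Bhlhe40 (0.61, adjusted p = 0.00105) were higher at 12 than at 9 weeks in SPF knockouts.

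Ordered by group mean, Nr1d1 ran from wild types (8.61) and SPF knockouts (8.52) at 7 weeks through wild types at 9 (7.43) and 12 weeks (7.28), conventional knockouts at 12 (6.60) and 9 weeks (6.42), and SPF knockouts at 9 (5.88) and 12 weeks (5.61) to conventional knockouts at 7 weeks (5.46). The single gap between neighbours whose arrays did not overlap was under the 2 top groups. Nr1d2 ran from 10.90 in wild types and 10.88 in SPF knockouts at 7 weeks through wild types at 12 (10.36) and 9 weeks (9.75) to SPF knockouts at 9 (8.20) and 12 weeks (8.18) and conventional knockouts at 7 weeks (8.08), and all its neighbours overlapped. Both genes had the same lowest 3 groups and the same highest 4. Ciart was highest in SPF knockouts (7.06) and wild types (7.01) at 7 weeks, followed by wild types at 12 weeks (6.04). Its single gap without overlap was also under the 7-week pair. Its lowest group was SPF knockouts at 9 weeks (4.84), next to conventional knockouts at 7 weeks (4.97), and wild types at 9 weeks (5.20) stood in the sixth place.

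The difference between kinds of mice itself changed with age. From 7 to 9 weeks the difference of conventional from SPF knockouts changed by 3.60 ± 0.59 for Nr1d1, 3.47 ± 0.52 for Nr1d2 and 2.75 ± 0.37 for Ciart (adjusted p = 0.00604, 0.0041 and 0.00177), 3 of the 6 genes where 0.0934% of all genes were called (17 genes). From 7 to 12 weeks the changes were 4.06 ± 0.59, 3.76 ± 0.52 and 1.84 ± 0.37, where 9.35% of genes were called. Both rest on the same 7-week arrays. The difference of conventional knockouts from wild types changed for Ciart from 7 to 9 weeks (2.35 ± 0.37, adjusted p = 0.00411), 1 of the 6 where 2.01% of genes were called. Nr1d1 (2.14 ± 0.59, adjusted p = 0.0563) and Nr1d2 (1.95 ± 0.52, adjusted p = 0.0515) lay just over the threshold, and each was called in some fits without 1 array (lowest adjusted p = 0.0199 without SPF knockout 12-week replicate 2 for Nr1d1, and 0.0264 for Nr1d2). From 7 to 12 weeks limma called 0 of the 6 and 0% of genes (4 and 2088 unadjusted), and from 9 to 12 weeks 0 of the 6 (2 unadjusted) where 1.82% of genes were called. Without wild-type 12-week replicate 1, Nr1d1 was called in the former (2.88, adjusted p = 0.043). In the latter Ciart was called without wild-type 12-week replicate 3 (-1.67, adjusted p = 0.0125) or SPF knockout 12-week replicate 2 (-1.20, 0.0304). Bhlhe40 was called there at -0.70 to -0.71 without SPF knockout 12-week replicate 2 (adjusted p = 0.00964) or 3 (0.0347), SPF knockout 9-week replicate 3 (0.0464) or conventional knockout 9-week replicate 3 (0.0422). From 7 to 9 weeks Bhlhe40 was called at 0.64 without SPF knockout 12-week replicate 2 (0.0135) or 3 (0.0455), and at 0.76 for conventional against SPF knockouts without the former (0.0293). The difference of SPF knockouts from wild types changed from 7 to 12 weeks for Nr1d2 (-2.16 ± 0.52, adjusted p = 0.0209) and Rora (-0.70 ± 0.22, adjusted p = 0.0475), 2 of the 6 where 8.92% of genes were called. The Nr1d2 call was lost without SPF knockout 7-week replicate 2, SPF knockout 12-week replicate 1 or 3, or wild-type 12-week replicate 2 (adjusted p = 0.0586, 0.0608, 0.0639 and 0.0571), and with only the compared arrays (0.0544). Nr1d1 was called here without SPF knockout 12-week replicate 2 (-1.99, adjusted p = 0.0129) or wild-type 12-week replicate 3 (-1.98, 0.0411), and Ciart without the latter (-1.17, 0.0218). From 7 to 9 weeks limma called 0 of the 6 and 0% of genes for that difference (3 and 1348 unadjusted), and from 9 to 12 weeks 0 of the 6 and 0% (0 and 2416 unadjusted).

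Bhlhe40 (DEC1, chromosome 6, probe set 1418025_at) had a range of group means of 0.69, wider than that of 75.2% of genes and narrower than those of Nr1d1, Nr1d2 and Ciart. At 7 weeks replicates 1 to 3 were at 9.75, 9.74 and 9.53 in wild types, at 9.43, 9.66 and 9.72 in SPF knockouts and at 9.56, 9.19 and 9.27 in conventional knockouts. At 9 weeks they were at 9.27, 9.09 and 9.17 in wild types, at 9.15, 8.93 and 8.89 in SPF knockouts and at 9.45, 9.53 and 9.47 in conventional knockouts. Conventional knockouts stood above both other groups at 9 weeks without overlap, by 0.31 ± 0.13 over wild types (adjusted p = 0.1) and 0.50 ± 0.13 over SPF knockouts (adjusted p = 0.204), and neither difference was called. Of all genes 42.5% did not overlap in the former comparison and 11.8% in the latter. Both were called without SPF knockout 12-week replicate 2 (adjusted p = 0.0333 and 0.022), which enters only through the shared spread. At 12 weeks they were at 9.39, 9.41 and 9.33 in wild types, at 9.53, 9.00 and 9.67 in SPF knockouts and at 8.85, 9.01 and 9.10 in conventional knockouts. Conventional knockouts then had the lowest mean, under that of SPF knockouts by -0.41 ± 0.13 (1.33-fold, adjusted p = 0.0295), 1 of the 6 genes where 24.6% of all genes were called. Arrays overlapped in this comparison, and the call was lost without conventional knockout 12-week replicate 1 (adjusted p = 0.117) or 2 (0.0648) or SPF knockout 12-week replicate 1 (0.129) or 3 (0.212), with a difference of -0.28 in the last. With only the arrays of these 2 groups the adjusted p was 0.212. Between these groups 5 of 5 neutrophil and 5 of 6 macrophage markers were lower and 6 of 6 smooth muscle markers higher in conventional knockouts, and their part in the result was not tested. Nr1d1 and Nr1d2 were on the other side in these 2 groups, 0.99 ± 0.41 (adjusted p = 0.0856) and 0.96 ± 0.37 (adjusted p = 0.0581) higher in conventional than in SPF knockouts. Without conventional knockout 12-week replicate 1 both were called (1.31, adjusted p = 0.0441, and 1.40, adjusted p = 0.0136), and without SPF knockout 12-week replicate 2 Nr1d1 was (1.40, adjusted p = 0.0128). Nr1d2 was also called without conventional knockout 9-week replicate 1 (0.0496) or 3 (0.0447), SPF knockout 9-week replicate 3 (0.0372) or wild-type 12-week replicate 3 (0.0323), arrays outside this comparison.

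From 9 to 12 weeks Bhlhe40 fell in conventional knockouts by -0.50 ± 0.13 (1.41-fold, adjusted p = 0.0306), 1 of the 6 where 7.34% of genes were called. In the same comparison 2 of 5 neutrophil, 3 of 6 macrophage, 3 of 5 T cell and 2 of 2 innate lymphoid markers were lower at 12 weeks. List means of neutrophil markers were 5.83 to 6.92 at 9 and 3.52 to 3.73 at 12 weeks, and those of macrophage markers 8.50 to 9.10 and 7.71 to 7.96. Their part in the result was not tested. That call was lost without conventional knockout 9-week replicate 1 (adjusted p = 0.101) or 2 (0.0976) or 12-week replicate 1 (0.117) or 2 (0.0797), and with each array centred on its median (-0.45, 0.051). The fall of Bhlhe40 in SPF knockouts from 7 to 9 weeks was lost without SPF knockout 7-week replicate 2 (0.167) or 3 (0.132) or 9-week replicate 2 (0.098) or 3 (0.266), and with only the compared arrays (0.127). The change from 9 to 12 weeks in the difference of conventional from SPF knockouts, -0.91 ± 0.19 (adjusted p = 0.00408, 1 of the 6 where 18.6% of genes were called), was called whichever array was left out but not with only the compared arrays (adjusted p = 0.0807). For that change Ciart was called without SPF knockout 12-week replicate 2 (-1.18, adjusted p = 0.0147) or wild-type 12-week replicate 3 (-0.91, adjusted p = 0.0155). By group mean Bhlhe40 ran from wild types (9.67) and SPF knockouts (9.60) at 7 weeks to SPF knockouts at 9 weeks and conventional knockouts at 12 weeks (both 8.99), and every group overlapped with its neighbour in that order. Bhlhe41 (DEC2, chromosome 6), a close relative, was near the low end of the arrays, between 3.64 and 4.30 in all 27, with a mean (4.05) above that of 27.2% of genes. It passed no test in the 27 comparisons, and neither did its second probe set. At this signal a difference may not have been detectable.

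**Figure D3:**
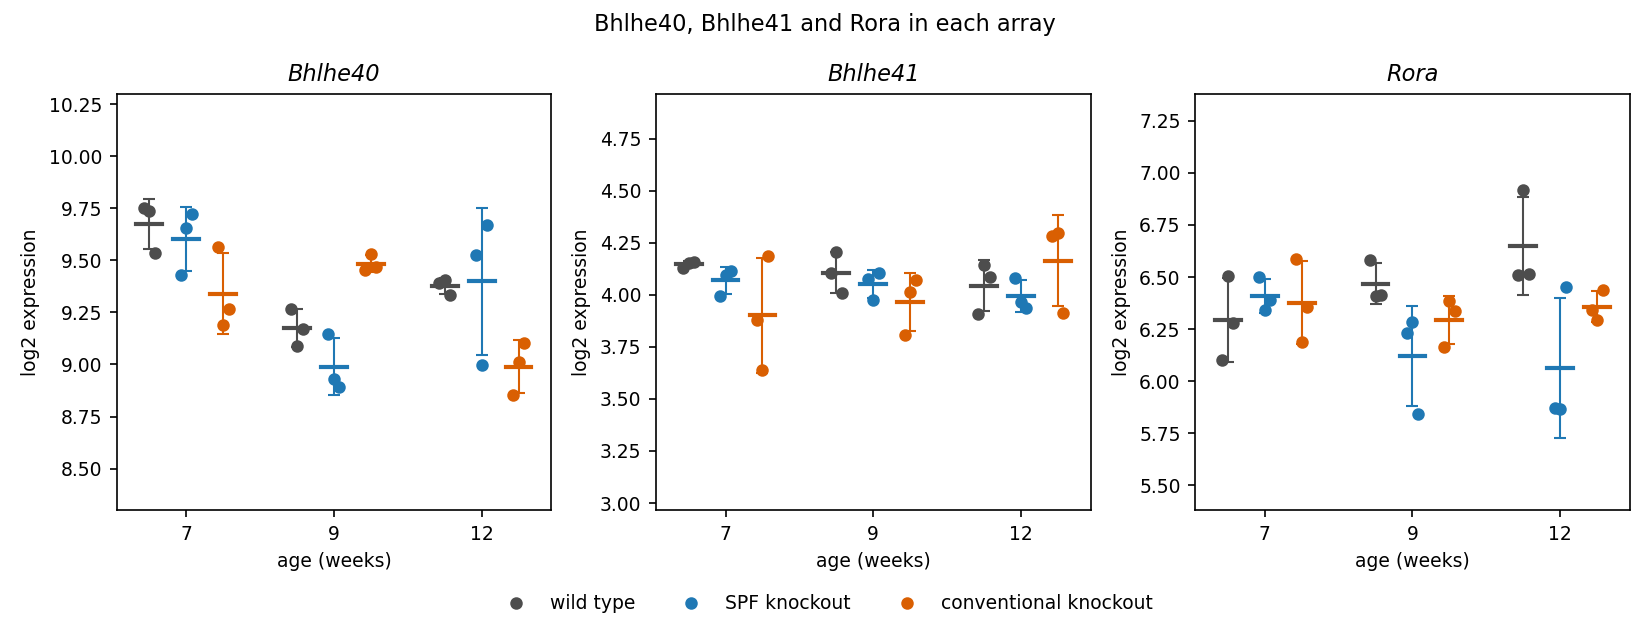
Log2 expression (vertical axes, own scale per panel, equal span) of Bhlhe40, Bhlhe41 and Rora against age in weeks; points are arrays, bars group means and whiskers 1 SD (n = 3 arrays per group). Bhlhe40 in conventional knockouts lies at 9.45 to 9.53 at 9 weeks and 8.85 to 9.10 at 12 weeks, and Bhlhe41 stays between 3.64 and 4.30.

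Rora (chromosome 9), the activator that competes with the REV-ERBs at ROR elements, was read by 9 probe sets, and 1436326_at, with the highest mean, stands for the gene. At 12 weeks its replicates 1 to 3 were at 6.51, 6.92 and 6.52 in wild types, at 5.87, 5.87 and 6.45 in SPF knockouts and at 6.34, 6.29 and 6.44 in conventional knockouts. Wild types stood above both knockouts without overlap, where 33.5% of all genes did not overlap against SPF knockouts and 18.1% against conventional knockouts. SPF knockouts were lower by -0.59 ± 0.15 (1.5-fold, adjusted p = 0.00512) and conventional knockouts by -0.29 ± 0.15, which was not called (adjusted p = 0.363). At 7 weeks, where Nr1d1 and Nr1d2 differed most, Rora lay between 6.10 and 6.59 in all 9 arrays, and conventional knockouts differed from wild types by 0.08 ± 0.15 (95% interval -0.24 to 0.40). At 9 weeks it lay between 6.41 and 6.58 in wild types, 5.84 and 6.29 in SPF knockouts and 6.16 and 6.38 in conventional knockouts, and SPF knockouts differed from wild types by -0.35 ± 0.15 (adjusted p = 0.14). By group mean Rora ran from wild types at 12 (6.65) and 9 weeks (6.47) to SPF knockouts at 9 (6.12) and 12 weeks (6.06), and all neighbours in that order overlapped. The 12-week difference held whichever array was left out, but the call on the change in it from 7 weeks, -0.70 ± 0.22, was lost in 26 alternative fits (adjusted p from 0.0215 to 0.165 over all alternatives), with the mean of the probe sets among them (-0.38, adjusted p = 0.165). Without SPF knockout 12-week replicate 3, Rora in SPF knockouts was also called lower at 12 than at 7 weeks (-0.54, adjusted p = 0.0217) and lower than in conventional knockouts at 12 weeks (conventional minus SPF 0.49, adjusted p = 0.048).

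The 9 Rora probe sets did not all follow the same course. Against 1436326_at, r over the 27 arrays was 0.834 for 1455165_at, 0.727 for 1458129_at, 0.653 for 1424034_at, 0.578 for 1436325_at and 0.575 for 1420583_a_at. It was 0.351 for 1458145_at, 0.0522 for 1424035_at and 0.0226 for 1441085_at. In SPF knockouts against wild types at 12 weeks 4 of the 9 were called lower in the fit over all probe sets, and none higher. The largest was 1455165_at at -1.12 ± 0.24 (limma adjusted p = 0.00165), with replicates 1 to 3 at 6.02, 7.18 and 6.38 in wild types and 5.0, 5.49 and 5.74 in SPF knockouts. Its highest array was wild-type replicate 2, the one with the high actin ratio. The other called probe sets were 1424034_at (-0.63), 1436326_at (-0.59) and 1458145_at (-0.42), and the 5 that were not ranged from -0.25 to 0.20. With the mean of all 9 probe sets in place of one, the difference of Rora was -0.35.

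**Figure D4:**
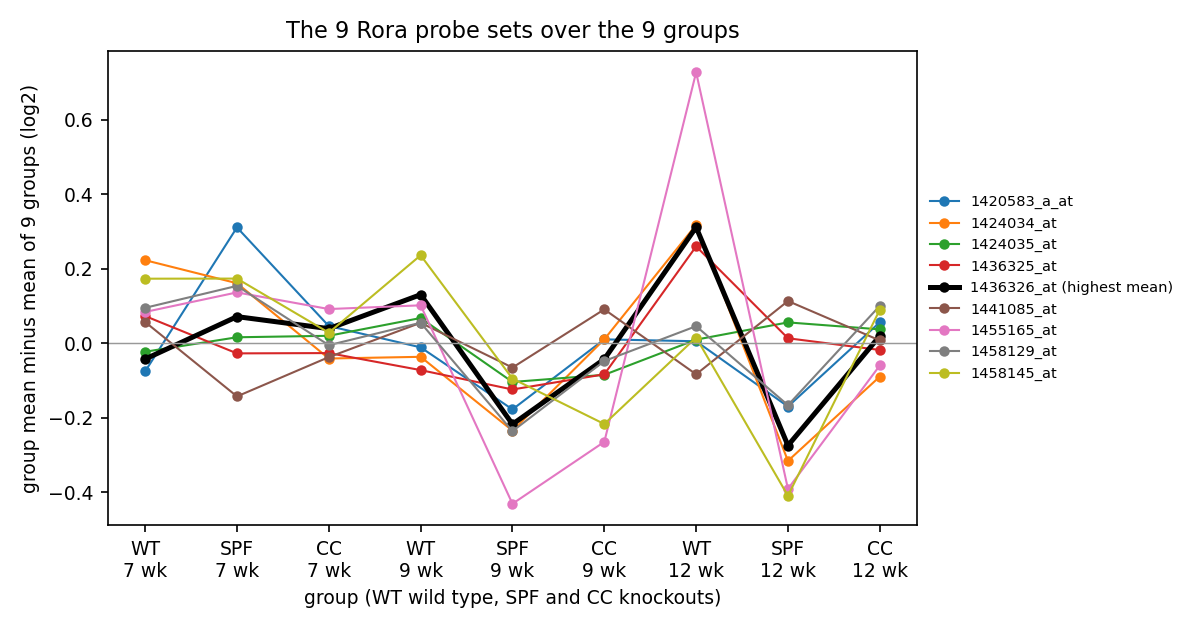
Group mean minus the mean of the 9 groups (log2, vertical axis) for the 9 Rora probe sets over the 9 groups; each line is a probe set and the thick line is 1436326_at, which stands for the gene. 1455165_at has the widest range of group means (1.16) and 1424035_at the narrowest (0.17).

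Over the 27 arrays, which share their groups, Nr1d1 and Nr1d2 rose and fell together (Pearson r = 0.956, Spearman rho = 0.971, r = 0.963 without the 2 arrays farthest from the median of Nr1d1). The relation was also present within groups, after each group's mean was subtracted (r = 0.814), and in the 18 arrays of 9 and 12 weeks (r = 0.901). Ciart lay with Nr1d1 only through the 7-week groups. Its r with Nr1d1 was 0.769 over all arrays, 0.295 without the 7-week arrays and 0.0794 within groups, so the pooled value rests on the separation of the 7-week groups. With Nr1d2 it was 0.812, 0.534 and 0.333. Ciart ran opposite to Arntl in every form (r = -0.939, rho = -0.853, -0.859 without 7 weeks, -0.824 within groups). Nr1d1 did so over all arrays (r = -0.693) but not within groups (-0.0813) or without 7 weeks (-0.104). For Nr1d2 and Arntl r was -0.754 over all arrays, -0.462 within groups and -0.36 without 7 weeks. Bhlhe40 had an r of 0.721 with Ciart (0.347 within groups) and 0.393 with Nr1d1 (-0.192 within groups). These are descriptions over arrays of shared groups and carry no test.

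**Figure D5:**
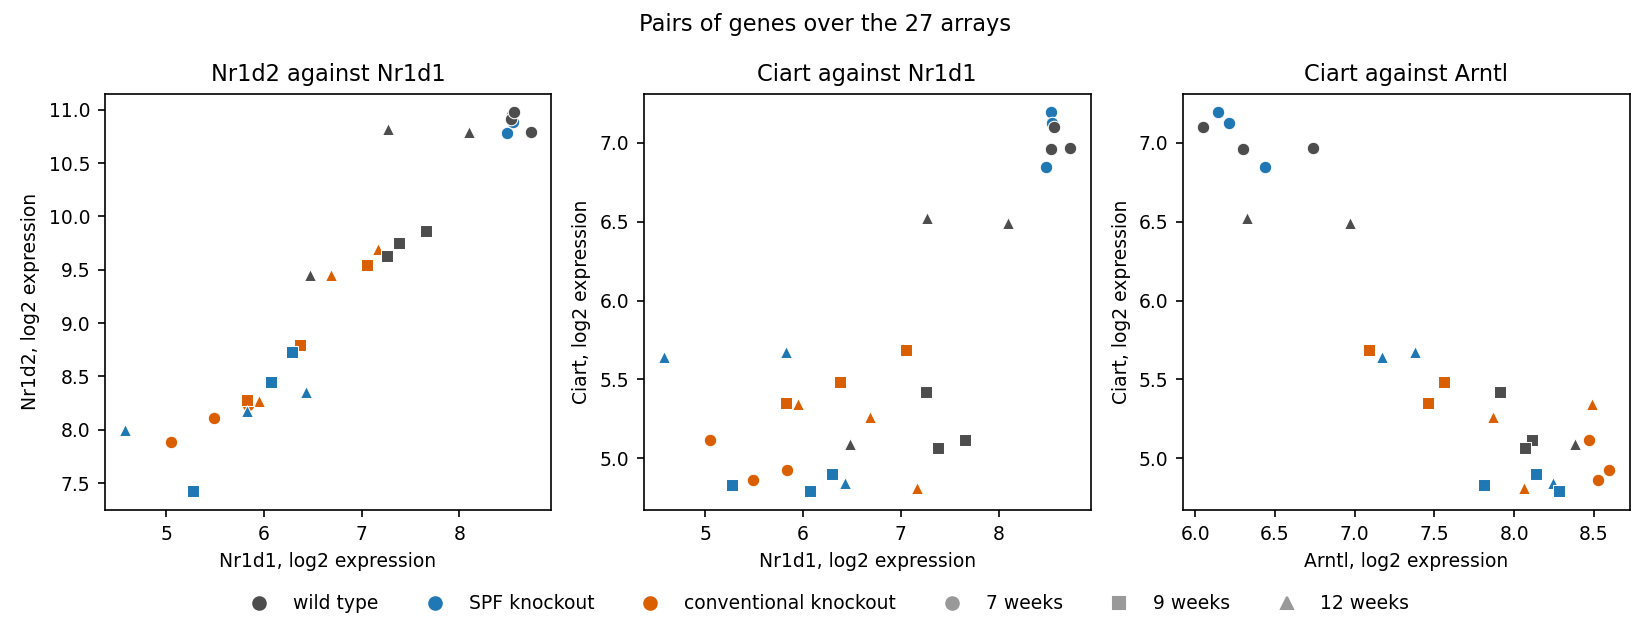
Log2 expression of Nr1d2 against Nr1d1, Ciart against Nr1d1 and Ciart against Arntl in the 27 arrays; colour marks the kind of mouse and shape the age. The left and right panels form a single band (r = 0.956 and -0.939), and in the middle one the 7-week wild types and SPF knockouts lie apart from a cloud whose Ciart values do not follow Nr1d1 (r = 0.295 without 7 weeks).

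By the rule used, the 5 genes most like each member over the 27 arrays were as follows. For Nr1d1 they were Nr1d2 (0.956), Tns4 (0.928), Dbp (0.917), Per3 (0.883) and 0610005C13Rik (0.879), and for Nr1d2 they were Dbp (0.962), Nr1d1 (0.956), Tef (0.938), Per3 (0.905) and Cipc (0.898). Dbp and Tef are PAR bZIP transcription factors driven by the clock, and Cipc is an inhibitor of CLOCK. The gene most opposed to both was Dusp6 (r = -0.927 and -0.966), a phosphatase of ERK kinases. Next came E2f2 (-0.88) and Hspa5 (-0.878) for Nr1d1, and Nfil3 (-0.91) and E2f2 (-0.902) for Nr1d2. For Ciart the list was Coq10b (0.89), Dbp (0.89), Tef (0.88), Per1 (0.86) and Ccdc85b (0.84), and the most opposed were Arntl (-0.939), Ier5 (-0.866) and Rnf24 (-0.857). For Bhlhe40 it was Spata13 (0.767), Per1 (0.763), Tspan4 (0.754), Coq10b (0.733) and Nudt16l1 (0.73), with Tspan8 (-0.723), Gm15848 (-0.716) and Arntl (-0.699) most opposed. For Rora it was Rhoq (0.857), Hmgn3 (0.83), Ubr1 (0.823), Zfp871 (0.823) and Phldb2 (0.82), with Tha1 (-0.831), Tmem189 (-0.818) and Edem2 (-0.817) most opposed. The genes most like Bhlhe41 were Cabp7 (0.755), 4933440J02Rik (0.739), Kap (0.693), Tspan10 (0.692) and Krt81 (0.686), and the most opposed were Fhl2 (-0.593), 9130401M01Rik (-0.59) and Nek4 (-0.588). The values are Pearson r over arrays that share groups, so genes that differ between the same groups also come out alike.

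Of 34 other clock genes on the lists used, 28 were measured. At 7 weeks 5 of the 28 rose and 4 fell in conventional knockouts against wild types, where 0.506% of all genes were called (median difference 0.0251, against -0.0027 over all genes). The activators Arntl (2.17 ± 0.33) and Npas2 (1.66 ± 0.26), Cry1 (1.92 ± 0.24) and Nfil3, which represses D-box genes (2.50 ± 0.24), rose opposite to the repressors described here, and Dbp, Tef, Hlf and Per3 fell with them. In SPF knockouts from 7 to 9 weeks 4 of the 28 rose and 8 fell, where 0.726% of all genes were called (median -0.1, all genes -0.0175). The same activators rose, Arntl by 1.81 ± 0.33 and Npas2 by 1.39 ± 0.26, with Cry1 at 1.38 ± 0.24 and Nfil3 at 2.39 ± 0.24, while Tef (-3.14 ± 0.34), Dbp (-5.66 ± 0.67), Hlf (-2.92 ± 0.37) and Per3 (-2.25 ± 0.31) fell. In SPF knockouts against wild types at 12 weeks 2 of the 28 rose and 6 fell, where 34.8% of all genes were called, so the share called among these clock genes was not above that of all genes (median -0.0525, all genes 0.0197). The PAR bZIP factors Dbp (-4.07 ± 0.67), Tef (-1.97 ± 0.34) and Hlf (-2.09 ± 0.37) fell with Nr1d1 and Nr1d2 and Nfil3 rose (2.14 ± 0.24), but of the 4 activators none passed limma's test. In conventional knockouts from 7 to 9 weeks 1 of the 28 rose and 8 fell, where 10.4% of all genes were called (median -0.0739, all genes 0.00982), among them Arntl (-1.16 ± 0.33), Cry1 (-1.16 ± 0.24) and Per2 (-1.64 ± 0.31), in a comparison in which none of the 6 genes was called.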

How the data were processed

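Gene expression in full-thickness mouse colon was measured on 27 Affymetrix arrays, 1 per sample. The deposited values are log2 expression values per probe set, normalised by the authors with the affyPLM package, per the series' design text. For that package no version is named, and how background was removed or probes were summarised is not given in the sources used here. The same text names a rat array, while the probe sets carry mouse annotation. The values were used as deposited. Since array medians are nearly alike, differences are relative to the bulk of genes.

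Of 45101 probe sets, 64 controls were left out, and 932 with several gene symbols and 9160 with none entered no gene test. The other 34945 gave 18193 genes. A gene with more than 1 probe set (9010 genes) was represented by the one with the highest mean. limma (3.58.1, R 4.3.3) fitted 9 group means with 18 residual degrees of freedom, and 27 contrasts were tested with eBayes, two-sided: kinds of mice at each age, ages within each kind, and the changes between ages. The 6 genes and the lists of clock and marker genes were chosen with earlier results of these data known. The text names the 6 genes everywhere, each one's 5 most alike and 3 most opposed genes by Pearson r, and up to 4 called genes per clock list and comparison. The main model has no replicate block. Alternatives were a replicate block, a further quantile normalisation, centring, dropping the 40% lowest genes by mean, all probe sets singly, averaging the probe sets of each gene, a trend with intensity in eBayes, array weights, a fit of the compared arrays alone, and leaving out each array in turn. The model was tested on simulated data. The number of arrays limits the precision. Promoters came from RefSeq, and pandas 2.3.3, NumPy 2.4.6 and matplotlib 3.10.9 under Python 3.11.15 gave tables and plots.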

Additional observations from a re-analysis of the deposited data

Results flagged for a closer look

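The differences listed here were those between 2 kinds of mice whose change with age passed limma's test (adjusted p under 0.05). For conventional against SPF knockouts, Nr1d1, Nr1d2 and Ciart changed from 7 to 9 weeks by 3.60, 3.47 and 2.75 log2 units and from 7 to 12 weeks by 4.06, 3.76 and 1.84. In each case the conventional knockouts were the lower ones at 7 weeks. At 9 weeks the signs were the opposite for all 3 genes, and at 12 weeks for Nr1d1 and Nr1d2, with no call at either age. For conventional knockouts against wild types, Ciart changed from 7 to 9 weeks by 2.35. For SPF knockouts against wild types, Nr1d2 changed from 7 to 12 weeks by -2.16 and Rora by -0.70. Bhlhe40 changed by -0.91 from 9 to 12 weeks in conventional against SPF knockouts.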

How the results depend on the processing

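Of 5805 differences of the 6 genes under alternatives, 5649 kept their direction and their side of the threshold or were called in neither fit, 61 lost a call, 95 gained one and 0 called differences reversed. Of these, 84 changed sign, uncalled in both fits. Of 31 called differences, 23 were kept whichever array was left out and 20 under every other alternative. The cause was not tested.

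Counts below are of the 6 genes called, with the count in the fit as reported in parentheses. Replicate numbers did not pair the samples: over 27 same-numbered pairs within an age, deviations from group means had r from -0.438 to 0.264, and 4 pairs were over 0.1. With the replicate block, 9 against 7 weeks gave 1 in SPF knockouts (4) and 0 in wild types (1), 12 against 9 weeks in conventional knockouts 0 (1), and the change from 7 to 12 weeks of SPF knockouts against wild types 1 (2). With array weights, conventional knockouts against wild types at 9 weeks gave 3 (0). Conventional against SPF knockouts gave 2 (0) at 9 weeks and 5 (1) at 12 weeks. For ages it was 1 (0) for 9 against 7 weeks in conventional knockouts, 2 (0) for 12 against 9 in SPF knockouts, 2 (1) for 9 against 7 and 1 (0) for 12 against 7 in wild types. Changes of conventional knockouts against wild types gave 4 (1) from 7 to 9, 1 (0) from 7 to 12 and 2 (0) from 9 to 12 weeks, and conventional against SPF knockouts 3 (1) from 9 to 12. With only the compared arrays, conventional knockouts against wild types at 9 weeks gave 3 (0), SPF knockouts against wild types at 12 weeks 1 (3), and conventional against SPF knockouts at 12 weeks 0 (1). It gave 1 (0) for 9 against 7 weeks in conventional knockouts and 3 (1) in wild types, then 4 (1) and 1 (0) for the changes of conventional knockouts against wild types from 7 to 9 and 9 to 12 weeks, 0 (2) for SPF knockouts against wild types from 7 to 12, and 0 (1) for conventional against SPF knockouts from 9 to 12. Centring gave 0 (1) for 12 against 9 weeks in conventional knockouts. Conventional against SPF knockouts at 12 weeks gave 2 (1) with quantile normalisation, without the lowest genes and with the mean of probe sets. The change of conventional knockouts against wild types from 7 to 9 weeks gave 2 (1) with quantile normalisation and with a trend, and 3 (1) with centring and without the lowest genes, which also gave 1 (0) from 9 to 12. The change of SPF knockouts against wild types from 7 to 12 weeks gave 1 (2) with quantile normalisation, centring, all probe sets, the mean of probe sets and a trend.

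Leaving out 1 array, counts ran from 0 to 2 for conventional knockouts against wild types at 9 and 12 weeks, SPF knockouts against wild types at 9 weeks, conventional against SPF knockouts at 12 weeks, 12 against 7 weeks in wild types, 12 against 9 in SPF knockouts, and the change from 9 to 12 weeks of conventional knockouts against wild types. They ran from 0 to 1 for conventional against SPF knockouts at 9 weeks, 12 against 9 in conventional knockouts and wild types, 9 against 7 in wild types, and the change from 7 to 12 of conventional knockouts against wild types. They ran from 0 to 4 for the change from 7 to 12 of SPF knockouts against wild types, 1 to 4 for that from 7 to 9 of conventional knockouts against wild types and 1 to 2 for that from 9 to 12 of conventional against SPF knockouts. They ran from 3 to 4 for SPF knockouts against wild types at 12 weeks, 12 and 9 against 7 weeks in SPF knockouts, and the change from 7 to 9 of conventional against SPF knockouts. The 3 for conventional knockouts against both other kinds at 7 weeks did not change.

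Counts over all genes follow, with the range over alternatives that keep every array (not all probe sets) and then over fits without 1 array. Conventional knockouts against wild types gave 92 (67 to 763, 30 to 156), 4375 (4066 to 7659, 2119 to 5058) and 82 (30 to 110, 11 to 834) genes at 7, 9 and 12 weeks. Its change with age gave 366 (200 to 3101, 48 to 1353), 0 (0 to 19, 0 to 40) and 332 (0 to 2841, 0 to 1618) from 7 to 9, 7 to 12 and 9 to 12 weeks. SPF knockouts against wild types gave 10 (8 to 139, 7 to 38), 2155 (1440 to 6223, 283 to 3023) and 6329 (1321 to 6785, 4533 to 7339) genes at 7, 9 and 12 weeks. Its change with age gave 0 (0 to 41, 0 to 4), 1623 (8 to 4540, 70 to 4547) and 0 (0 to 2768, 0 to 1823) from 7 to 9, 7 to 12 and 9 to 12 weeks. Conventional against SPF knockouts gave 49 (33 to 253, 18 to 64), 0 (0 to 3681, 0 to 185) and 4480 (20 to 6997, 1357 to 6246) genes at 7, 9 and 12 weeks. Its change with age gave 17 (14 to 1456, 12 to 56), 1701 (538 to 5685, 177 to 4521) and 3387 (26 to 7903, 1562 to 5494) from 7 to 9, 7 to 12 and 9 to 12 weeks. Ages within conventional knockouts gave 1899 (151 to 5072, 429 to 2962), 0 (0 to 5, 0 to 0) and 1335 (0 to 5722, 97 to 2647) for 9 against 7, 12 against 7 and 12 against 9 weeks. Ages within SPF knockouts gave 132 (13 to 3392, 23 to 410), 5071 (394 to 7346, 2524 to 6503) and 0 (0 to 6288, 0 to 3593) for 9 against 7, 12 against 7 and 12 against 9 weeks. Ages within wild types gave 1 (0 to 35, 0 to 13), 22 (0 to 88, 0 to 497) and 0 (0 to 9, 0 to 251) for 9 against 7, 12 against 7 and 12 against 9 weeks. Array weights, and leaving out SPF knockout 12-week replicate 2, gave most of the highest counts.

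The 3 arrays per group were selected on damage, and collection times are not given in the labels. Bhlhe41 is dim; Rora's probe sets differ.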
